A study of Mus musculus with 4 samples.

Results

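Retinoic acid is made from circulating retinol in steps that many different proteins serve, and the 9 genes described here cover its supply, synthesis, binding and breakdown in the embryonic mouse heart. They are Rbp4 and Stra6 for transport and uptake of retinol, Aldh1a1, Aldh1a2 and Aldh1a3 for synthesis, Crabp1 and Crabp2 for binding, and Cyp26a1 and Cyp26b1 for breakdown. The genes were chosen by name for these roles, with earlier results of these data known. All 9 were found among the 16675 genes measured, each by 1 probe. In hearts deficient in the Hippo pathway gene Salvador, 4 of the 9 were higher than in controls, namely Rbp4, Aldh1a2, Crabp1 and Crabp2. None of the 9 was lower, and 5 did not pass the test (limma). Before adjustment for the number of genes, 5 were higher at p under 0.05, the fifth being Cyp26a1 (limma unadjusted p = 0.0332), and 0 were lower. Over all 16675 genes, 4460 had an unadjusted p under 0.05 in either direction. After adjustment, 821 of all genes (4.92%) were higher and 951 (5.7%) were lower.

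Retinol is carried in blood by retinol binding protein and enters some cells through the receptor Stra6. It is oxidised to retinal by alcohol and retinol dehydrogenases and then to retinoic acid by the Aldh1a enzymes, and retinoic acid acts on genes through the nuclear receptors Rar and Rxr. Cyp26 enzymes oxidise it for removal. In the early heart tube, retinoic acid made by Aldh1a2 in the posterior mesoderm patterns the inflow end, and both an excess and a lack of it disturb heart formation.

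The study asked which genes the Hippo pathway, a kinase cascade that limits growth by holding back the coactivator Yap, regulates while the heart forms. Total RNA of whole hearts dissected at embryonic day 9.5 was pooled into 2 control samples, labelled wild-type, and 2 Salv CKO samples, carrying a conditional knockout of Salvador (Sav1), a scaffold protein of the kinase cascade. Both groups were of the hybrid strain C57bl/6 x129, and the submitters' design text calls the pools biological replicates. Each pool was hybridised to 1 Cy5 array. The Cre driver, the alleles of the controls and the number of hearts per pool were not stated. Values below are quantile-normalised intensities, in arbitrary units, and differences are on the log2 scale, Salv CKO minus control. A gene was called higher or lower at an adjusted p under 0.05 in limma, with the Benjamini-Hochberg adjustment over all 16675 genes. An exact permutation test of 2 pools against 2 cannot go below p = 0.333, so all p-values here rest on limma's estimate of the spread, which it shares between genes.

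The targeted gene Sav1 read 755 and 630 in the 2 controls and 582 and 562 in the 2 Salv CKO pools. Both Salv CKO pools were below both controls, by -0.27 ± 0.13 (SE) on the log2 scale, which was not past the threshold (limma adjusted p = 0.266). Where its 1 probe lies relative to the deletion was not stated, so this reading checks the labels only weakly. The pools correlated at r = 0.946 between controls, 0.947 between Salv CKO pools and 0.937 to 0.942 across groups, over all probes on the log2 scale. Before normalisation, the median deposited intensity was 77.5 and 101 in the controls and 71.1 and 76.1 in the Salv CKO pools. Among all genes, 821 were higher in Salv CKO (4.92%) and 951 were lower (5.7%), against 4 and 0 of the 9 retinoic acid genes. Because the 9 were chosen with earlier results of these data known, these shares stand side by side without a test. The median difference was 0.62 over the 9 genes and -0.04 over all genes. An intensity of 16 (log2 4) was taken as the background limit, and 6 of the 9 genes exceeded it on all 4 arrays. Among the 12402 genes that did so, 800 (6.45%) were higher in Salv CKO.

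Promoter sequences were searched for exact matches to a retinoic acid response element next to the gene start. Through this element retinoic acid is known to induce its own breakdown. Elements of another form or outside the windows were not looked for. RefSeq windows of 250 bases before annotated starts (GRCm38.p6) covered 7 of the 9 genes with 12 windows, and Crabp2 and Aldh1a3 had none. They were searched on both strands for direct repeats of the 6-base half-sites that the receptors are known to bind, 5, 2 or 1 bases apart, taken as AGGTCA, its variant AGTTCA, the form GGGTCA or the form GGTTCA. A spacing of 5 occurred in 29 of all 32851 windows (0.0883%), a spacing of 2 in 57 (0.174%) and a spacing of 1 in 54 (0.164%). Among the windows of the retinoic acid genes, the only match was a repeat with spacing 5 in that of Cyp26a1. The windows were also searched on both strands for CATTCC, the core bound by the Tead factors through which Yap acts on genes, which occurred in 4153 of all windows (12.6%). It was found in Crabp1, as the reverse complement GGAATG, and in 1 window of Aldh1a1. No window of Aldh1a2, Rbp4, Cyp26a1, Cyp26b1 or Stra6 held it. The stretches of Cyp26a1 and Crabp1, both genes of the + strand, are shown with the match in capitals.
Cyp26a1, chr19:37697731-37697807, + strand: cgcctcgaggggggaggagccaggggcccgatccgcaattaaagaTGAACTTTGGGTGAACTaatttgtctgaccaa
Crabp1, chr9:54764596-54764691, + strand: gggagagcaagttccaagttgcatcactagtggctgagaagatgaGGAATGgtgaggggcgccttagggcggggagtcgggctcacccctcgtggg
The capitals in Cyp26a1 lie 32 to 16 bases before the start and hold the repeat on the minus strand, and those in Crabp1 lie 107 to 102 bases before it. These letters describe the windows, and no binding was measured.

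Rbp4, the carrier that brings retinol from the liver and yolk sac to other tissues, read 301 and 324 in the controls and 1509 and 1599 in the Salv CKO pools. Both Salv CKO pools lay far above both controls, and pools of 1 group lay close together. The log2 mean rose from 8.29 ± 0.07 to 10.60 ± 0.06 (SD, n = 2 pools each), a difference of 2.31 ± 0.10 (SE) or 4.97-fold (limma adjusted p = 0.00615). The 95% interval of the difference was 2.05 to 2.58. By size of rise it had rank 29 among the 12402 genes above background. Each of the 4 ratios of a Salv CKO pool to a control was between 4.65 and 5.30, and between 3.04 and 4.37 with the intensities as deposited.

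Stra6, the membrane receptor that takes up retinol from Rbp4, was near the background limit, at 17.4 and 9.43 in the controls and 6.29 and 21.7 in the Salv CKO pools. Only 1 of 2 pools in each group exceeded the limit, the groups overlapped, and the difference was -0.13 ± 0.83 (limma adjusted p = 0.944). The carrier thus rose on arrays where its receptor was hardly measurable, and Stra6 could not be placed as higher or lower.

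Aldh1a2, the main enzyme of retinoic acid synthesis in the early embryo, read 319 and 325 in the controls and 947 and 1027 in the Salv CKO pools. All Salv CKO values were above all control values, and the controls were nearly equal. The log2 mean rose from 8.33 ± 0.02 to 9.95 ± 0.08 (SD, n = 2 pools each), a difference of 1.61 ± 0.11 (SE) or 3.06-fold (limma adjusted p = 0.00694), with a 95% interval of 1.34 to 1.89. Ratios of single pools ranged from 2.91 to 3.22, and from 1.90 to 2.63 as deposited.

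The other synthesis enzymes did not pass the test. Aldh1a1, an enzyme of retinal oxidation that is prominent in the eye and in adult tissues, read 169 and 158 in the controls and 156 and 168 in the Salv CKO pools. The groups overlapped fully, and the difference was -0.01 ± 0.18 (limma adjusted p = 0.974), with a 95% interval of -0.47 to 0.44. That interval did not reach the difference measured for Aldh1a2. Aldh1a3, known from the eye and nasal region, was dim at 34.5 and 17.4 in the controls and 21.2 and 14.0 in the Salv CKO pools. It exceeded the background limit in both controls and in 1 of 2 Salv CKO pools, and its difference was -0.51 ± 0.57 (limma adjusted p = 0.638).

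Both cellular retinoic acid binding proteins rose. Crabp1, which binds retinoic acid in the cytoplasm and is known from neural crest and hindbrain, read 13518 and 13262 in the controls. It read 47334 on both Salv CKO arrays, where it had the same rank, so that quantile normalisation gave it the same value. Its deposited intensities were 14838 and 16725 in the controls against 39754 and 41062 in the Salv CKO pools, with no overlap. The log2 mean rose from 13.71 ± 0.02 (SD, n = 2 pools) to 15.53, a difference of 1.82 ± 0.06 (SE) or 3.54-fold (limma adjusted p = 0.00439). The 95% interval was 1.67 to 1.98. The tied rank made the SD of the Salv CKO pools 0, and the SE was larger under the other scalings. It was 0.08 with arrays divided by their 75th percentile, 0.14 as deposited and 0.16 with arrays centred on their median. The smallest ratio of single pools was 3.50 and the largest 3.57, or 2.38 and 2.77 as deposited.

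Crabp2, which carries retinoic acid to its nuclear receptors, read 9250 and 10734 in the controls and 40082 and 31845 in the Salv CKO pools. The groups were far apart, and the pools of a group differed more than for the other 3 genes that rose. The log2 mean rose from 13.28 ± 0.15 to 15.12 ± 0.23 (SD, n = 2 pools each), a difference of 1.84 ± 0.14 (SE) or 3.59-fold (limma adjusted p = 0.00762), with a 95% interval of 1.48 to 2.20. Single-pool ratios spanned 2.97 to 4.33, and 2.00 to 3.25 as deposited. The call was lost when intensities were floored at 16 (adjusted p = 0.0566) or 64 (adjusted p = 0.0565) in place of 1. No array saturated at any of the 9 genes.

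Cyp26a1, which oxidises retinoic acid and is itself known to be induced by it, read 233 and 164 in the controls and 301 on both Salv CKO arrays. Both Salv CKO pools lay above both controls, but in intensity the controls differed from each other by about as much as the higher one did from Salv CKO. The difference was 0.62 ± 0.21 (SE), or 1.54-fold, with a 95% interval of 0.07 to 1.17, and it missed the threshold (limma adjusted p = 0.146). The interval lay below those of Rbp4, Aldh1a2, Crabp1 and Crabp2. As deposited the values were 237 and 205 against 254 and 265, a difference of 0.24. With Cyp26a1, 5 of the 9 genes had both Salv CKO pools above both controls, as had 25.2% of all genes, and none had both below, as had 29% of all genes. Cyp26b1, the second breakdown enzyme, was at or below background on all 4 arrays, so its level was not measurable in either group and no fold is given.

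**Figure D1:**
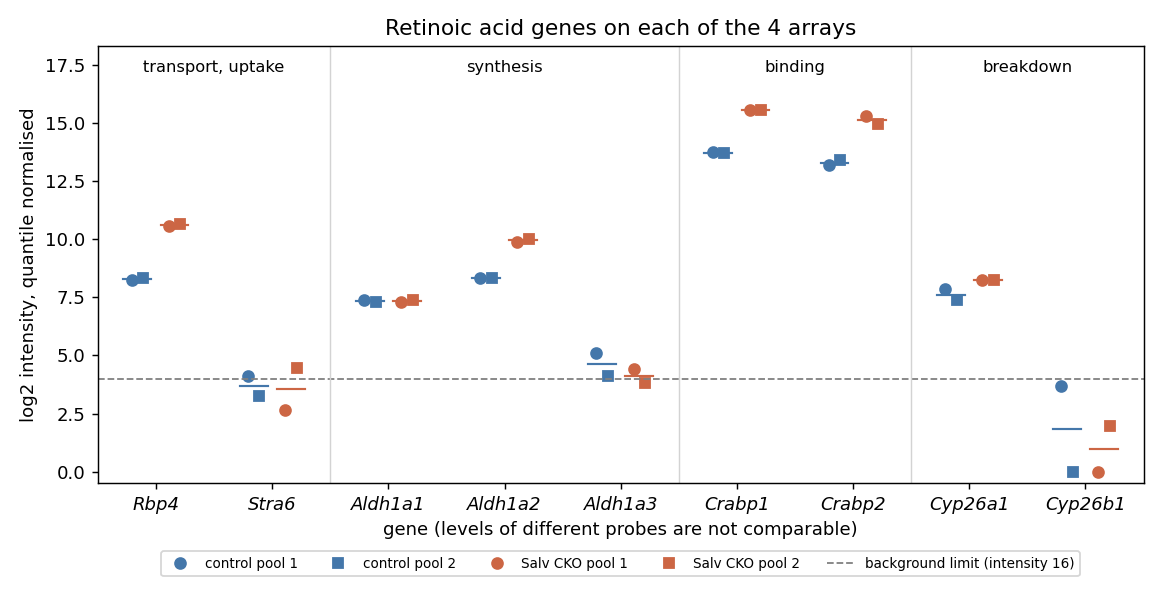
Log2 of the quantile-normalised intensity of each gene, floored at an intensity of 1, on the y axis, with the genes grouped by role on the x axis. Circles and squares are pools 1 and 2 of control (blue) and Salv CKO (orange), short lines are group means, and the dashed line is the background limit of 16 (log2 4). Rbp4, Aldh1a2, Crabp1 and Crabp2 show both orange points well above both blue points, and Stra6, Aldh1a3 and Cyp26b1 lie around or below the dashed line.

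The 4 genes that rose were compared by their profiles over the 4 arrays, each centred on its own mean, by Euclidean distance on the log2 scale. With 4 arrays in 2 groups, this distance mostly reflects the size of the group difference. Aldh1a2 and Crabp1 were the closest pair at 0.23, followed by Crabp1 and Crabp2 at 0.29, and Aldh1a2 and Rbp4 were the farthest at 0.70. Among all 12402 genes above background, the nearest to Aldh1a2 were Nup54 (0.06), Nrip1 (0.08) and Grb7 (0.11). The nearest to Crabp1 were Smoc1 (0.05), Cenpc1 (0.11) and Grb7 (0.14). The nearest to Crabp2 were Hoxd3 (0.17), Hoxb5 (0.19) and Sema3d (0.20). Those nearest to Rbp4 were Sfrp2 (0.18), Olig3 (0.20) and Meox1 (0.21).

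The rest of the pathway was listed by role, and 33 of its 36 genes were measured. Of these, 5 were higher in Salv CKO (15.2%), 1 was lower (3.03%) and 27 did not pass the test. As deposited, the balance was 3 higher and 4 lower, and with a floor of 16 or 64 it was 2 higher and 0 lower. The median difference was 0.22, which became -0.16 with the intensities as deposited. Cyp26c1, the third breakdown enzyme, was not analysed here.

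Upstream of Aldh1a2, Rdh10, the dehydrogenase that makes most of the embryo's retinal, read 145 and 143 in the controls and 285 and 296 in the Salv CKO pools. The groups did not overlap, and the difference was 1.01 ± 0.15 (limma adjusted p = 0.0232), but as deposited it was 0.64 and was not called (adjusted p = 0.110). Adh5, a broad alcohol dehydrogenase, rose by 1.19 ± 0.12 (limma adjusted p = 0.0117), from 2649 and 2559 to 6646 and 5292. A second probe of Adh5 differed by only 0.17 ± 0.07 (limma adjusted p over all probes = 0.224), so its probes disagreed. Rdh5, a retinol dehydrogenase known from the retinal pigment epithelium, was the 1 gene that fell, from 84.8 and 116 to 29.4 on both Salv CKO arrays, with a difference of -1.75 ± 0.32 (limma adjusted p = 0.0367). At a floor of 16 or 64, the calls of Rdh10 (adjusted p = 0.0533 and 0.0762), Adh5 (0.0709 and 0.0717) and Rdh5 (0.0696 and 0.228) were lost, and the difference of Rdh5 at floor 64 was -0.63. Without a higher floor, 2 of the 13 interconversion genes rose and 1 fell. Dhrs3, which turns retinal back to retinol, was at or below background on all 4 arrays.

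Among the other roles, Cyp1b1, an oxidase that can also form retinoic acid, rose from 100 and 86.6 to 423 and 411, a difference of 2.16 ± 0.17 (limma adjusted p = 0.00789). Fabp5, which can deliver retinoic acid to another nuclear receptor, rose from 715 and 705 to 1392 and 1155, a difference of 0.84 ± 0.12 (limma adjusted p = 0.0211). That call was lost with the intensities as deposited (0.37, adjusted p = 0.164) and at floors of 16 and 64 (adjusted p = 0.0848 and 0.0857), and a second probe of Fabp5 differed by 0.66 ± 0.15 (adjusted p over all probes = 0.0823). Nrip1, a corepressor recruited by liganded receptors, rose from 723 and 798 to 2240 and 2458, a difference of 1.63 ± 0.10 (limma adjusted p = 0.00661). It was 1 of the 5 receptor cofactors measured, and the only one called.

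None of the 6 receptor genes passed limma's test on its main probe, the brightest of the gene, and before adjustment 0 were higher and 1 was lower at p under 0.05. Rara differed by 0.03 ± 0.19, Rarb by 0.06 ± 0.22 and Rarg by 0.75 ± 0.31 (limma adjusted p = 0.947, 0.888 and 0.209), and the sign for Rara and Rarb turned when arrays were centred on their median or left as deposited. Rarb, a receptor that retinoic acid is itself known to induce, had a second, dimmer probe at 74.1 and 78.5 in the controls and 184 and 175 in the Salv CKO pools. On that probe the groups did not overlap, and the difference was 1.23 ± 0.19 (limma adjusted p over all probes = 0.0351). The mean of both probes differed by 0.65 (limma adjusted p = 0.0794), so the probes of Rarb disagreed. None of the 6 measured genes of retinol supply and storage passed limma's test, and 1 was higher at an unadjusted p under 0.05. It was Stra6l, a relative of Stra6 listed under an older symbol, named here after its values were seen. It read 41.3 and 16.4 in the controls and 87.7 and 102 in the Salv CKO pools (difference 1.86 ± 0.52, limma adjusted p = 0.0971).

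**Figure D2:**
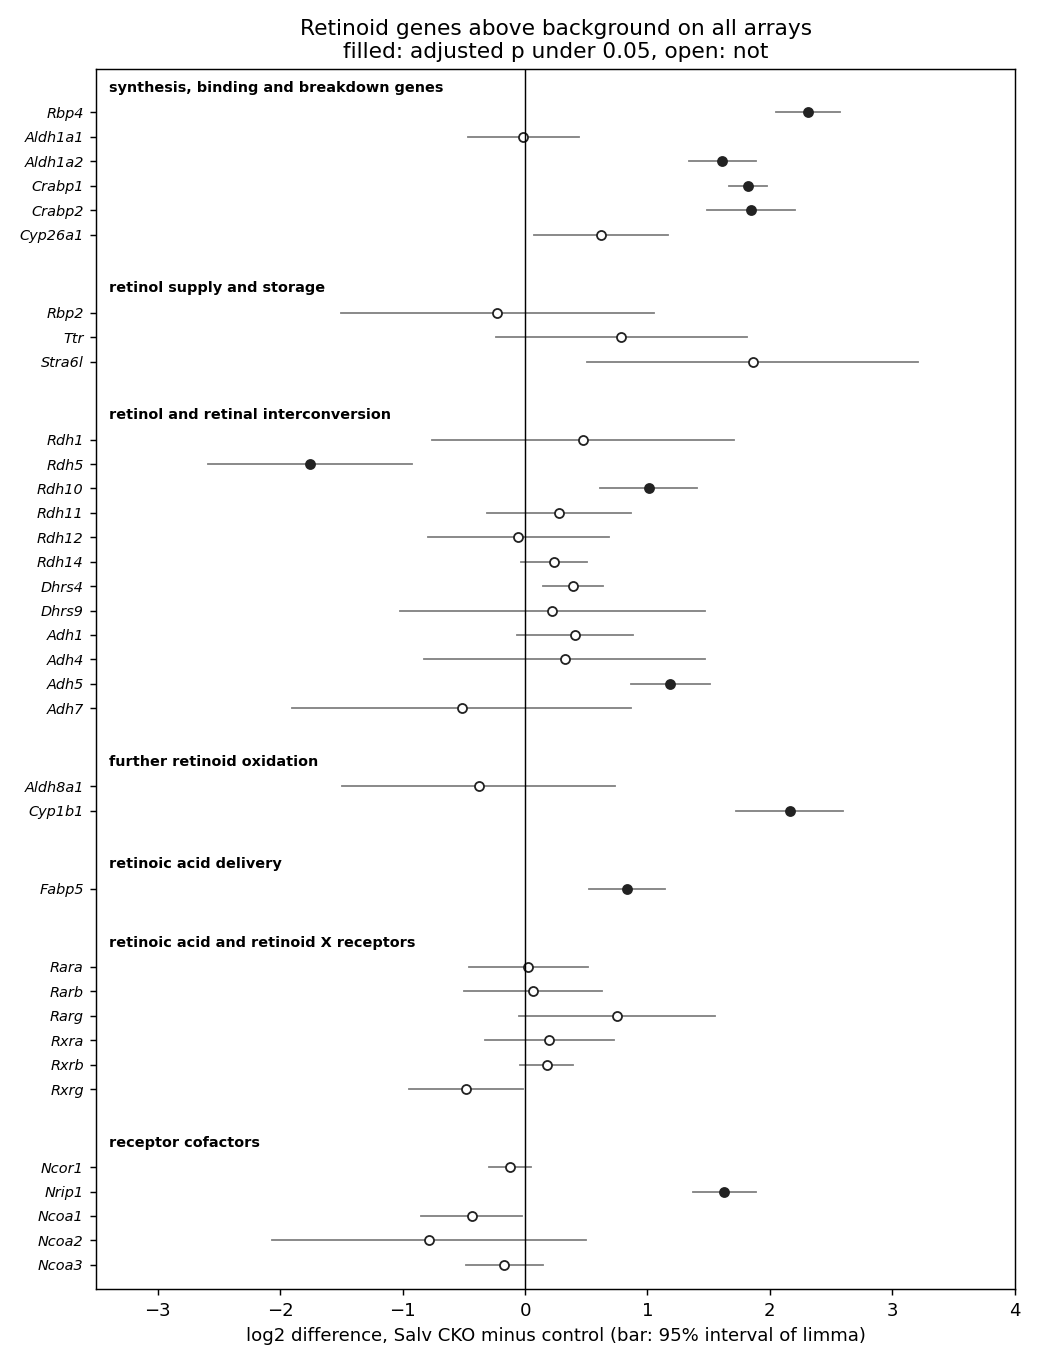
Log2 difference, Salv CKO minus control, on the x axis for the 6 genes of the synthesis, binding and breakdown group and for 29 further retinoid genes that were above background on all 4 arrays, each by its main probe. Bars are 95% intervals of limma, filled points have an adjusted p under 0.05 and open points do not. Rbp4, Crabp2, Crabp1 and Aldh1a2 lie between 1.61 and 2.31, and Rdh5 is the only filled point below 0. The receptors are open points that run from -0.48 (Rxrg) to 0.75 (Rarg).

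Genes known to respond to retinoic acid were listed separately, and 19 of 23 were measured. Of these, 4 were higher in Salv CKO (21.1%), 1 was lower (5.26%) and 14 did not pass the test, with a median difference of 0.22 that became -0.07 as deposited. The balance was 3 higher and 3 lower as deposited, 4 and 3 with arrays centred on their median, 4 and 2 at the 75th percentile, and 2 and 1 at a floor of 16 or 64. All 4 that rose were Hox genes, which set position along the body axis. Hoxb1 rose from 416 and 375 to 1160 and 1005, a difference of 1.45 ± 0.12 (limma adjusted p = 0.0091), lost at floors of 16 and 64 (adjusted p = 0.0507 and 0.0516). Hoxb5 rose from 230 and 251 to 952 and 883, a difference of 1.93 ± 0.12 (limma adjusted p = 0.00661). Hoxb4 rose by 1.52 ± 0.31 (limma adjusted p = 0.0478), and the call was lost as deposited (adjusted p = 0.116), at floors of 16 and 64 (0.107 and 0.178) and when the probes of each gene were averaged (0.0576). Hoxd4 was at 20.03 and 5.10 in the controls, above background in 1 of them, and at 385 and 367 in the Salv CKO pools (limma adjusted p = 0.0175). Tgm2, a transglutaminase that is also known to be induced by retinoic acid, fell from 6905 and 6224 to 2093 and 2353, a difference of -1.56 ± 0.10 (limma adjusted p = 0.00661). The called members of this list therefore moved both ways, as Hox genes rose and Tgm2 fell.

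Markers of tissues that the dissected hearts could hold also differed between the groups. Neural tube markers were higher for 4 of 8 genes and lower for none, with a median of 1.96 (1.09 for the 7 that exceeded background on every array), and their summed intensity was 622 to 704 in the controls and 7981 to 8941 in the Salv CKO pools. Neurog2 rose from 41.3 and 30.4 to 725 and 767, and Zic1 read 5.10 and 55.9 in the controls and 4750 and 4084 in the Salv CKO pools. Zic1 was thus the largest single part of the Salv CKO sums. The 4 neural tube markers that were not called differed by 0.01 (Pax6) to 1.09 (Otx2). Neural crest markers, a tissue known for Crabp1, were higher for 5 of 11 and lower for none, with a median of 0.95 and sums of 7852 to 8029 against 12879 to 13549. Foxd3 and Dlx5 of that list were at or below background on all 4 arrays, while Tfap2b (2.73) and Sox10 (2.57) rose. Erbb3 (-0.51), Dlx2 (-0.26) and Ednrb (-0.15) had lower means in Salv CKO but were not called. Somite markers, of a tissue known for Aldh1a2, were higher for 3 of 8 and lower for none, with a median of 1.78 and sums of 627 to 672 against 3782 to 3791. Tcf15 (3.08) and Meox1 (2.50) rose, and Myf5 was at or below background on all 4 arrays.

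Endoderm, liver bud and yolk sac markers, tissues known for Rbp4, were higher for 3 of 12 measured and lower for none, with a median of 0.79. Their sums were 3045 to 3431 in the controls and 7132 to 7298 in the Salv CKO pools, with rises in Afp (1.56) and Cldn6 (1.39), while Apoa2 was at or below background on all 4 arrays. The proepicardium, which gives rise to the epicardium and is known for Aldh1a2, had 2 of 7 markers higher, Sema3d (1.66) and Upk3b (0.58), and none lower. Its median was 0.58, its sums were 1163 to 1213 against 1927 to 1998, and its defining markers Wt1, Tcf21 and Upk1b were at or below background on all 4 arrays. A second probe of Upk3b differed by -0.13 ± 0.13 and was not called. Sinus venosus and posterior second heart field markers, where Aldh1a2 is also known, had 1 of 6 higher, Shox2 (0.46), and none lower. Tbx5 differed by -0.22 ± 0.09 on its main probe and by -0.91 ± 0.21 on a second probe, neither called. Isl1 (0.44) and Tbx18 (-0.80, above background on 1 array) were not called either. Their median was 0.45, or -0.01 as deposited, with sums of 4077 to 4481 against 4360 to 4718, and Hcn4 and Nr2f2 were at or below background.

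Most markers of heart muscle, endothelium and primitive red cells went the other way. Heart muscle markers were lower for 4 of 9, among them Nkx2-5 (-1.61) and Gata4 (-1.19), and higher for none. Myl7 differed by 0.35 ± 0.30, with overlapping groups, and was not called. On their main probes Actc1 and Myl4 were saturated on all 4 arrays and Myh6 on 2, so these differences are not measured sizes. A second, dimmer probe of Actc1 read 2106 and 3141 in the controls and 1679 and 2290 in the Salv CKO pools. Its groups overlapped, and it differed by -0.39 ± 0.25 (limma adjusted p over all probes = 0.450). Over the 6 genes without a saturated main probe the median was -0.78. Their sums were 91815 to 122821 in the controls and 84689 to 89746 in the Salv CKO pools. Endothelial markers were lower for 4 of 6, with a median of -0.69 and sums of 17792 to 18353 against 9945 to 10543, led by Eng (-1.08) and Cdh5 (-0.77). Markers of primitive red cells were lower for 2 of 5, Hbb-y (-1.08) and Alas2 (-0.94). Hba-x was saturated on 3 arrays, and the other 4 had a median of -0.60 and sums of 63449 to 65407 against 42692 to 45179. More cells of a type in the dissected tissue and more RNA per cell cannot be told apart in such pools. Where a marker list had 0 limma calls in a direction, it also had 0 at an unadjusted p under 0.05, except the endoderm list with 1 lower gene. The part of these tissues in the rise of Rbp4, Aldh1a2, Crabp1 and Crabp2 was not tested.

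**Figure D3:**
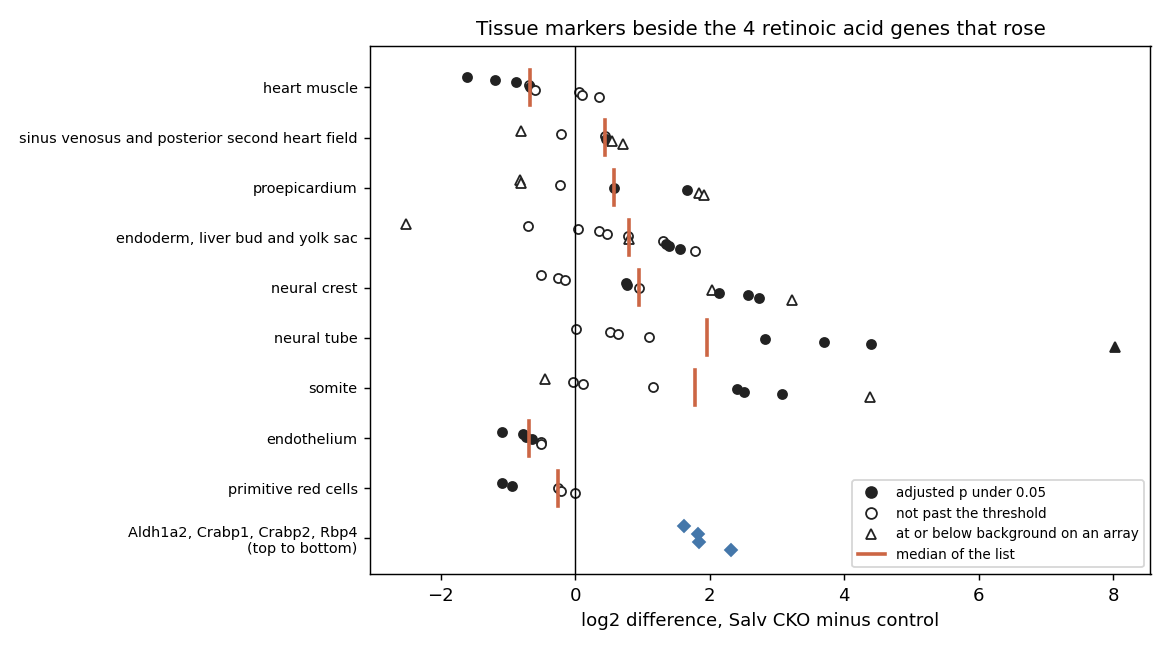
Log2 difference, Salv CKO minus control, on the x axis for each marker gene, in rows by tissue, with the 4 retinoic acid genes that rose as blue diamonds in the bottom row. Filled symbols have an adjusted p under 0.05, triangles were at or below background on at least 1 array, and orange bars are medians. The 4 diamonds lie between 1.61 and 2.31. The medians of neural tube (1.96, or 1.09 without Zic1, which was below background in 1 control) and somite (1.78) lie furthest right among the lists, and those of heart muscle (-0.67), endothelium (-0.69) and primitive red cells (-0.26) lie below 0, with saturated probes in the first and last of these.

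The size of the rise moved with the scaling of the arrays, whose controls were brighter as deposited. The median difference of genes above background was -0.04 after quantile normalisation, -0.17 with arrays centred on their median, -0.03 with arrays divided by their 75th percentile and -0.44 as deposited. Rbp4, Aldh1a2, Crabp1 and Crabp2 were called higher under each of these 4 scalings. Their smallest differences, as deposited, were 1.87, 1.16, 1.36 and 1.35 on that scale, where the median gene stood at -0.44. When 1 array was left out, no gene of the whole table passed the adjusted threshold, and the 4 genes had adjusted p-values of 0.195 to 0.207. Their differences then stayed between 2.24 and 2.36 for Rbp4, 1.57 and 1.68 for Aldh1a2, 1.80 and 1.85 for Crabp1 and 1.67 and 2.00 for Crabp2. The calls were also lost when limma's spread was not allowed to vary with intensity, with adjusted p-values of 0.103 to 0.125.

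**Figure D4:**
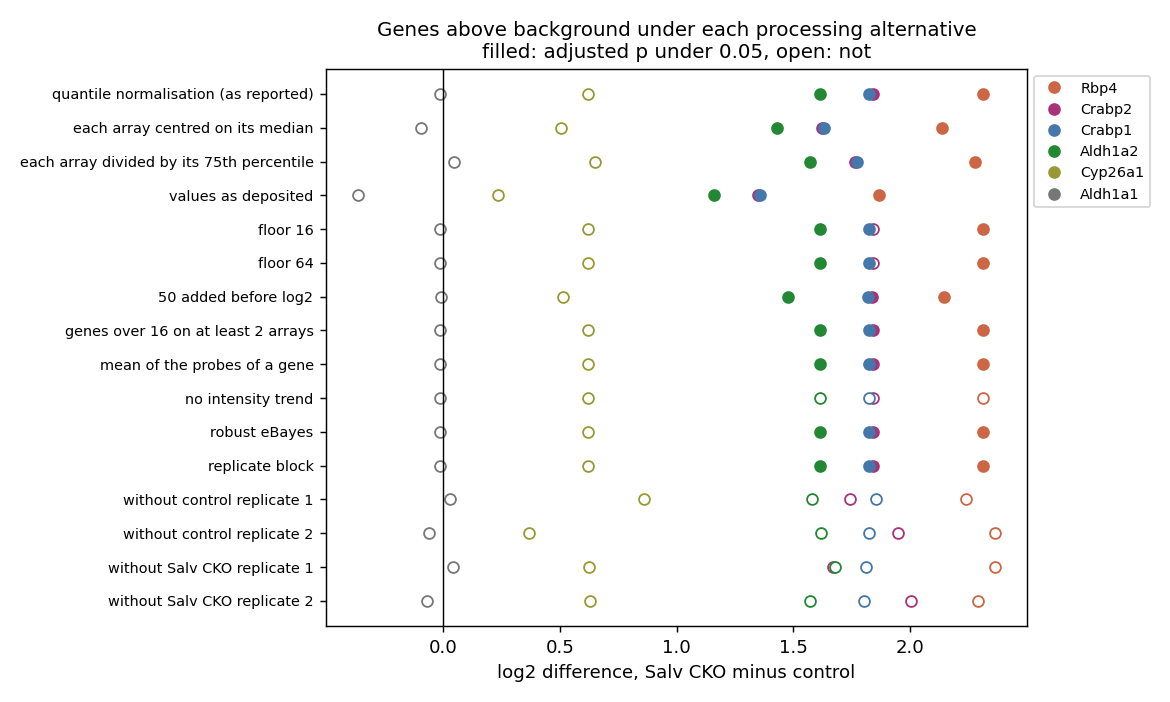
Log2 difference, Salv CKO minus control, on the x axis for the 6 retinoic acid genes above background on all 4 arrays under each processing alternative in rows, filled where the adjusted p of limma was under 0.05. Rbp4, Crabp1, Crabp2 and Aldh1a2 lie to the right of 1 in every row, Cyp26a1 is an open point throughout, and Aldh1a1 lies near 0 or below it. All points are open in the 4 rows that leave out an array and in the row without the intensity trend.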

How the data were processed

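Per the labels, total RNA of pooled whole hearts was amplified, labelled with Cy5 and hybridised to arrays read in 1 colour. The authors deposited linear probe intensities that had been background-subtracted, since 3.37 to 5.99% of the values of an array lay below 0. Their scanner, scaling and software were not stated. The 4 columns (29922 probes) were quantile normalised, floored at 1 and put on the log2 scale. Salv CKO was tested against control with limma 3.58.1 (R 4.3.3, intensity trend), after a check on simulated data. That check recovered 3% of simulated 1.5-fold changes, 28% of 2-fold, 60.6% of 4-fold and 74.7% of 8-fold changes. A gene that did not pass the test may therefore still differ. The array gene table named 21020 probes by 1 symbol, and the brightest probe stood for each of 16675 genes. The background limit of 16 was a fixed choice on the normalised scale. For comparison, the noise SD of an array, taken from its deposited values below 0, was 4.36 to 6.28. With 2 pools a group and 2 residual degrees of freedom, the number of arrays limits the precision, and p-values measure the spread between these pools. The genes, the lists and the tests were chosen with earlier results of these data known. Named are the 9 genes, each called gene of the pathway and responsive lists with Rara, Rarb, Rarg, Rdh10, Dhrs3 and Cyp26c1, up to 2 called genes of largest difference per marker list, and the 3 nearest profiles of each called gene. Of 127 list genes, 118 were measured. Second probes of a gene, tested over all probes, were looked up after the other results. Alternatives changed the scaling, floor, added constant, filter, probe rule, trend, robust spread, pairing by pool number and the pools used.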

Additional observations from a re-analysis of the deposited data

How the results depend on the processing

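With 2 pools a group, each call rests on limma's shared spread. The count of 4 higher genes was 0 without the intensity trend and 0 whichever pool was left out, where the whole table also had no call (before adjustment, 3172 to 3438 genes had a p under 0.05, compared with 4460 using all pools and 3578 without the trend). It stayed at 4 under the replicate block. Pool numbers only share a number (deviations of same-numbered pools correlated at r = 0.17 over genes), and the block raised the calls over all genes to 1016 higher and 1195 lower. Calls over all genes were 543 higher and 1835 lower with arrays centred on their median, 824 and 1205 at the 75th percentile, 229 and 3101 as deposited, 253 and 228 at floor 16 and 257 and 234 at floor 64. Signs turned for genes that were never called, and the cause was not tested. At the 75th percentile Aldh1a1 was 0.049 and Stra6 0.090. Stra6 was also 0.16 at floor 16 and 0.0058 with 50 added. Centred on the median, Rara was -0.068, Rarb -0.13 and the receptor median -0.060. As deposited, Rara was -0.34, Rarb -0.40, and the medians were -0.33 for receptors, -0.10 for interconversion, -0.070 for responsive genes, -0.16 for the other pathway genes and -0.0093 for the sinus venosus. With 1 pool left out, Aldh1a1 ran from -0.070 to 0.043, Cyp26b1, whose values lie at or below background and have no order, from -2.65 to 1.05, Stra6 from -1.03 to 0.79, Rara from -0.14 to 0.19, Rarb from -0.16 to 0.29, the receptor median from -0.028 to 0.19 and the sinus venosus median from -0.28 to 0.34.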
